A study of Caenorhabditis elegans with 24 samples.

Results

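The mRNAs of 9 maternally supplied chromatin repressors of the nematode Caenorhabditis elegans were followed in 4-cell embryos whose mothers or grandparents had lived at 25 °C or at 20 °C. The genes were chosen by name, without a cut on their values but with earlier results of these data known. They were lin-35 (WBGene00003020), efl-1 (WBGene00001161), dpl-1 (WBGene00001061), lin-9 (WBGene00002998) and lin-54 (WBGene00003037) of the DRM complex, the HP1 gene hpl-2 (WBGene00001996), and mes-2 (WBGene00003220), mes-3 (WBGene00003221) and mes-4 (WBGene00003222). They are 9 of 15208 genes with a probe on the array, 1 probe per gene. RNA of 50 pooled embryos per sample was amplified by in vitro transcription and hybridised to 24 one-colour arrays, 3 for each of 8 groups. The generation 2 embryos differ in maternal temperature, 25 °C or 20 °C, with all grandparents at 20 °C. The generation 3 embryos all had 20 °C mothers and differ in grandparental temperature, 25 °C or 20 °C. Each of these 4 conditions was sampled in HC445 and in N2, the wild-type laboratory strain. HC445 is labelled sid-1(qt9), a mutant of the double-stranded RNA channel of systemic RNA interference, and is suspected by the submitters to lack haf-6, so a difference between the strains cannot be assigned to sid-1 alone. All worms were fed a sporulation-defective Bacillus subtilis strain in place of Escherichia coli and had been kept at 20 °C before the experiment. Plates of the 25 °C line ran slightly shifted in time against their 20 °C controls, per the labels. The labels call the 3 samples of a group replicates without saying whether each had its own culture. The p-values therefore reflect variation among these samples, which may be technical.

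DRM is the worm version of the DREAM complex, in which the retinoblastoma-like pocket protein LIN-35, the E2F-DP pair EFL-1 and DPL-1 and a MuvB core that contains LIN-9 and LIN-54 sit on promoters of cell cycle and germline genes and keep many of them low. HPL-2 is a heterochromatin protein that binds methylated histone H3. MES-2 and MES-3 belong to the worm Polycomb complex, MES-2 being its histone methyltransferase, while MES-4 is a separate histone H3 methyltransferase that marks germline-expressed genes. In C. elegans all of these are supplied to the egg by the mother. Loss of several of them, lin-35 among them, lets germline genes come on in somatic cells, a defect that is worse at high temperature, and loss of maternal mes products leaves the offspring sterile.

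All 9 mRNAs were readily measured. Each probe was well above background on all 24 arrays, so that 216 of 216 spots were detected, with 0 saturated and 0 marked as outliers, and processed signals lay between 4194 and 249412. All 9 probes therefore entered the tests, and none did so through a single group in which it was high. Signals are given here as log2 of the processed signal minus log2 of that array's 75th percentile, which lay between 30282 and 45402. A value of 0 thus means a signal equal to that percentile. Levels of different genes are not compared, because each value also depends on its probe. The probe IDs could not be paired with the names of stage or tissue markers, so the labelled 4-cell stage was not checked here. Precision is set by having 3 arrays in each group.

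**Figure D1:**
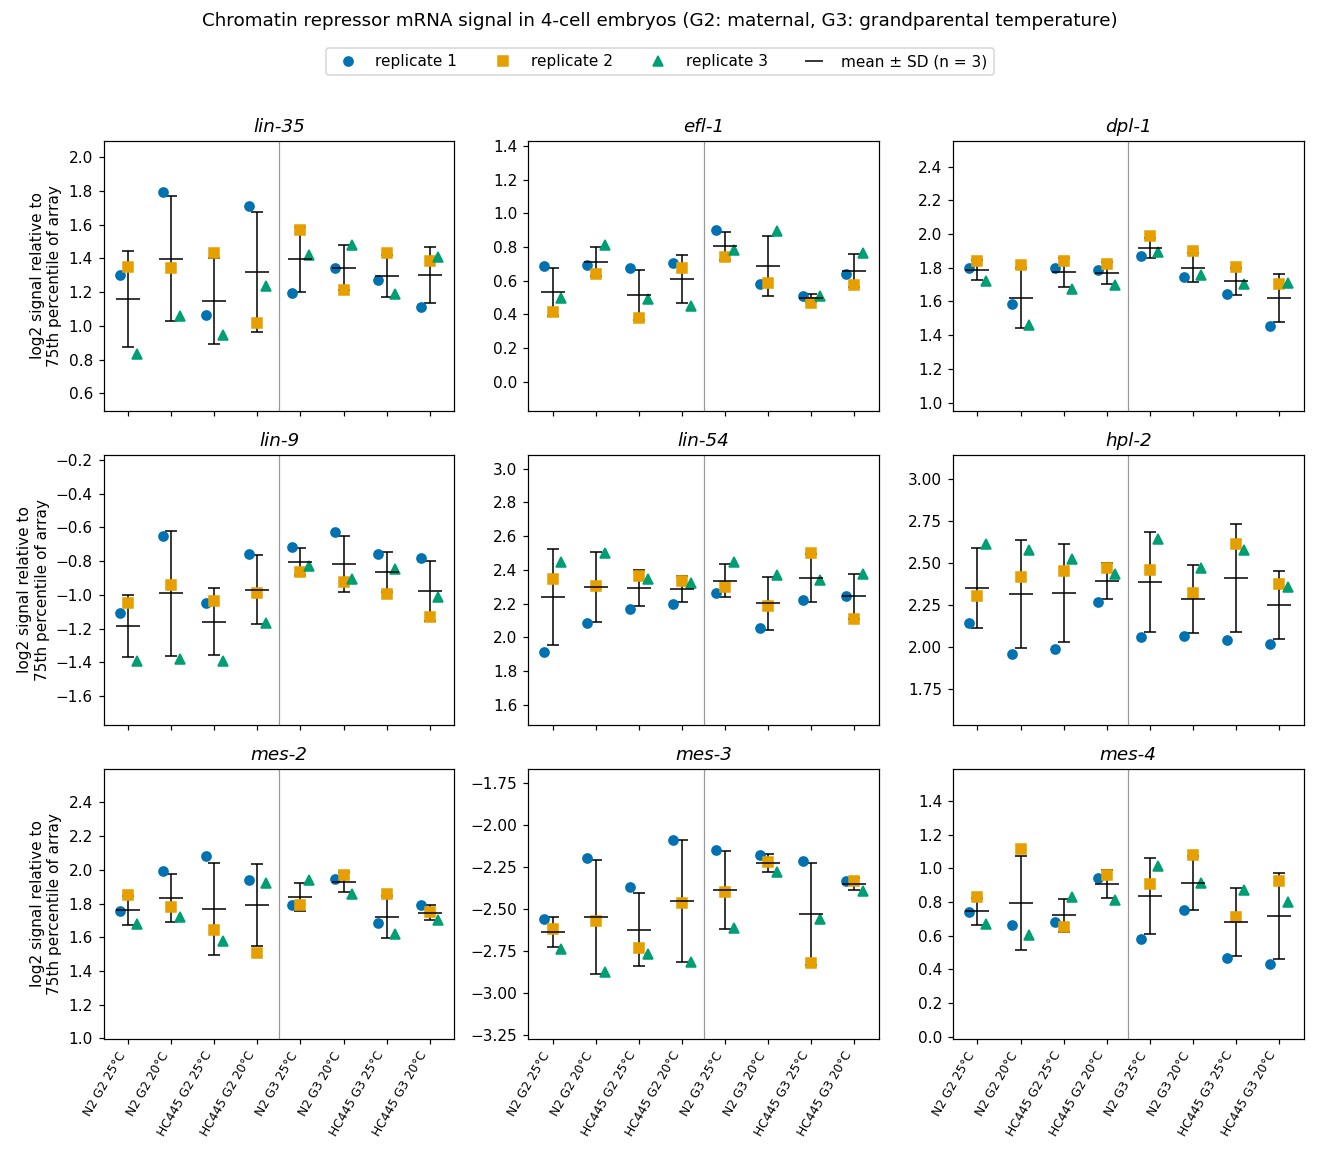
Log2 signal of each of the 9 genes on all 24 arrays, with each array's 75th percentile set to 0, by group (G2, generation 2 with maternal temperature; G3, generation 3 with grandparental temperature). Coloured points are single arrays by replicate number, black bars are means with SD (n = 3), and every panel spans 1.6 log2 units; the 25 °C and 20 °C groups lie within each other's range in nearly every panel.

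The first comparison asked whether the supply of these mRNAs differed in embryos of mothers kept at 25 °C. It did not do so beyond the error: with both strains in the estimate, 0 of 9 genes reached a Benjamini-Hochberg adjusted p under 0.05 in limma (lowest adjusted p = 0.334), and 0 of 9 had an unadjusted p under 0.05. With the replicate number as a block, only lin-9 did, at an unadjusted limma p of 0.0489 (adjusted p = 0.140). Over all 11637 probes tested, 14% passed the adjusted threshold in the fit without the block. In that fit 3164 of them had an unadjusted limma p under 0.05. The log2 differences, 25 °C minus 20 °C, ran from -0.20 for lin-35 to 0.08 for dpl-1. Their median was -0.12, against -0.07 over all probes, and 8 of 9 were below 0, as were 57.9% of all probes. Of 6 arrays that carry a note on spike-in concentration 5 belong to 25 °C groups. Without the 6 noted arrays the median of the 9 genes was -0.01, while that of all probes was -0.12. Leaving them out also unbalances the replicate numbers between the temperatures, as N2 with 25 °C mothers keeps only replicate 2. The changes in that fit therefore cannot be assigned to the noted concentration alone. The median size of the difference without its sign was 0.12 among the 9 genes, 0.26 over all probes and 0.20 over the probes that were above background on every array. These 9 genes were also measured with a smaller error, with a median SE of 0.11 against 0.22 over all probes. It was 0.15 over the probes above background on every array. The 95% intervals of all 9 differences stayed within 1.5-fold in either direction. At their widest they reached 1.40-fold lower (lin-35) and 1.20-fold higher (hpl-2) after 25 °C mothers, so smaller changes could have been missed.

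Within the DRM complex, lin-35, the only retinoblastoma-type gene of the worm, had the largest estimated difference. In N2 its log2 signal was 1.30, 1.35 and 0.83 after 25 °C mothers, against 1.80, 1.34 and 1.06 after 20 °C mothers (replicates 1, 2 and 3). In HC445 it was 1.07, 1.43 and 0.94 after 25 °C mothers, against 1.71, 1.01 and 1.24 after 20 °C mothers. The groups overlapped in both strains, and the highest values in each strain were the replicate 1 arrays of 20 °C mothers. The means were 1.15 ± 0.24 after 25 °C mothers and 1.36 ± 0.33 after 20 °C mothers (SD, n = 6 each), a difference of -0.20 ± 0.14 (SE; limma adjusted p = 0.372). Within single scan days it was -0.57 (replicate 1), 0.21 (replicate 2) and -0.26 (replicate 3). Without the 6 spike-in noted arrays, and so without balanced replicate numbers, it was 0.04. In replicate 3 all 25 °C arrays were on a single slide that held no 20 °C array. Temperature and slide cannot be told apart for that replicate, here and for the other genes. On the only slide that held N2 arrays of both temperatures in generation 2, lin-35 differed by -0.50.

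lin-9, a subunit of the MuvB core, followed a similar course. Its log2 signal after 25 °C mothers was -1.11, -1.05 and -1.39 in N2 and -1.05, -1.04 and -1.39 in HC445. After 20 °C mothers it was -0.65, -0.94 and -1.38 in N2 and -0.76, -0.99 and -1.17 in HC445. Again the replicate 1 arrays of 20 °C mothers were the highest, and the replicate 3 arrays of both temperatures were the lowest of their groups. The difference was -0.19 ± 0.12 (SE; limma adjusted p = 0.359), with the same sign on all 3 scan days (-0.38, -0.08 and -0.12). Without the spike-in noted arrays it was -0.01, in a fit where the replicate numbers were no longer balanced between the temperatures. It was -0.29 (limma adjusted p = 0.109) without the replicate 3 array of N2 20 °C mothers, the lowest adjusted p that any of the 9 genes reached in any comparison and setting.

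The E2F-DP pair split in sign. efl-1, the E2F partner, had a log2 signal between 0.38 and 0.69 (median 0.49) after 25 °C mothers and between 0.45 and 0.81 (median 0.68) after 20 °C mothers. Its difference was -0.14 ± 0.09 (SE; limma adjusted p = 0.334) and had one sign on all 3 scan days (-0.02, -0.26 and -0.14). dpl-1, the DP partner, lay between 1.67 and 1.84 (median 1.80) after 25 °C mothers and between 1.46 and 1.82 (median 1.74) after 20 °C mothers. It was the only one of the 9 genes with an estimate above 0, at 0.08 ± 0.08 (SE; limma adjusted p = 0.532). It too had one sign on all 3 scan days (0.11, 0.02 and 0.12), as 3 of the 9 genes did. The share of all probes with one sign on all days was not counted for either generation. The DNA-binding MuvB subunit lin-54 hardly moved, with a mean of 2.27 ± 0.19 after 25 °C mothers and 2.29 ± 0.14 after 20 °C mothers (SD, n = 6 each). The range of every one of these genes after 25 °C mothers overlapped its range after 20 °C mothers.

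The heterochromatin protein gene hpl-2 had means of 2.34 ± 0.24 after 25 °C mothers and 2.35 ± 0.22 after 20 °C mothers (SD, n = 6 each). Its difference of -0.02 (limma adjusted p = 0.958) was the smallest of the 9. The Polycomb methyltransferase gene mes-2 averaged 1.76 ± 0.18 after 25 °C mothers and 1.81 ± 0.18 after 20 °C mothers, and its partner mes-3 averaged -2.63 ± 0.15 and -2.50 ± 0.32 in the same order. mes-4 averaged 0.73 ± 0.08 after 25 °C mothers and 0.85 ± 0.19 after 20 °C mothers. The differences of the 3 mes genes were -0.05, -0.13 and -0.12 (limma adjusted p = 0.818, 0.648 and 0.564). For mes-2 the value was -0.33 with slide as a fixed term, at an unadjusted p of 0.0386 and a limma adjusted p of 0.320. None of these genes separated the temperatures.

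**Figure D2:**
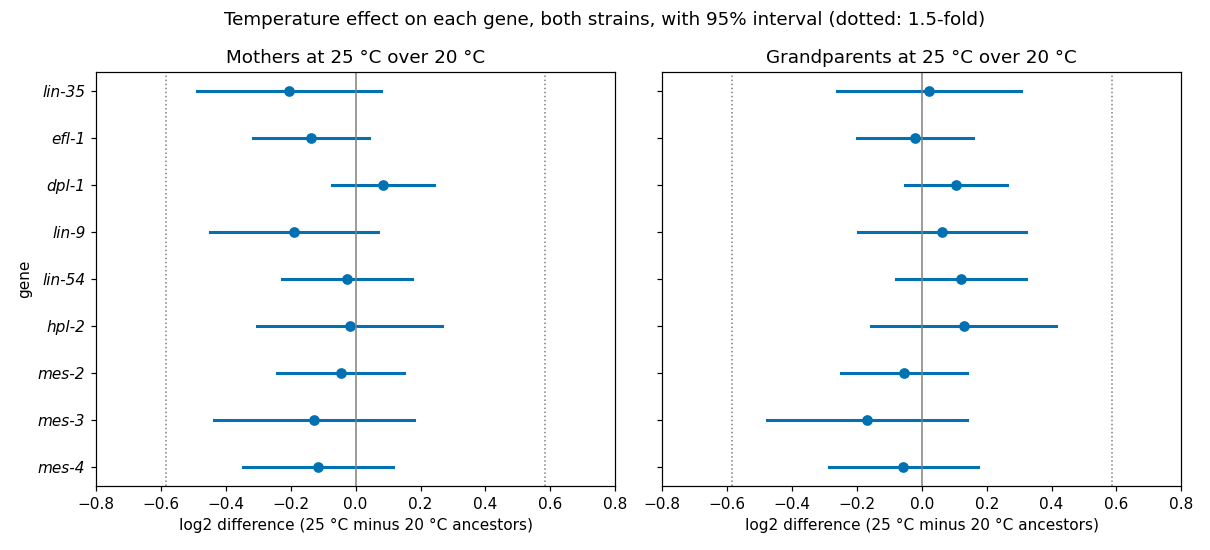
Log2 difference of each gene between embryos with 25 °C and with 20 °C mothers (left) and grandparents (right), both strains pooled, from the limma fit over all probes. Points are estimates, bars are 95% intervals and dotted lines mark 1.5-fold. All 18 intervals include 0 and lie inside the dotted lines.

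Each strain alone gave the same picture. For maternal temperature 0 of 9 genes passed in N2, where 5.47% of all probes did, and 0 of 9 in HC445, where 5.08% did. The lowest adjusted p was 0.469 (dpl-1) in N2 and 0.650 (mes-4) in HC445. As a second reading, free of the model, the 3 arrays of 25 °C mothers overlapped the 3 arrays of 20 °C mothers for all 9 genes in both strains. Among all probes with complete values the 3 arrays did not overlap for 17.6% in N2 and for 22.9% in HC445, and the 6 pooled arrays did not overlap for 7.48%. The strain by temperature term was called for 0 of 9 genes and for 0% of all probes. For this term 0 of 9 genes had an unadjusted limma p under 0.05, against 142 of the 11637 probes. Its 95% intervals reached 1.62-fold in one direction and 1.55-fold in the other, so moderate differences between the strains would not have been seen.

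**Figure D3:**
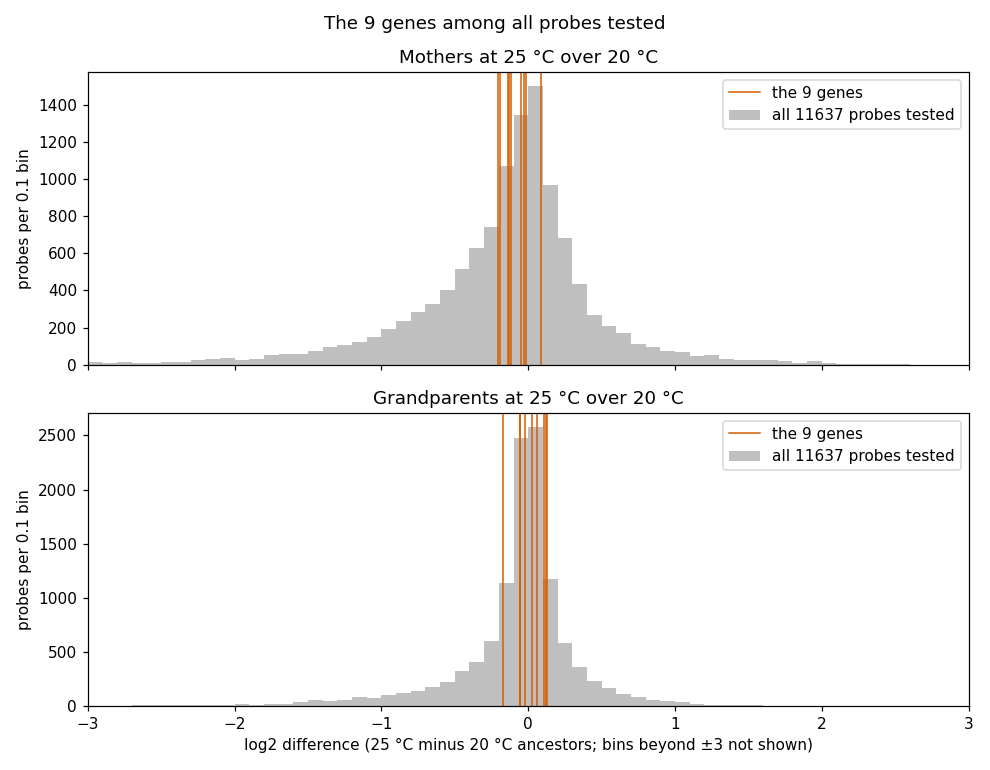
Number of probes per bin of log2 difference, 25 °C minus 20 °C ancestors, for mothers (top) and grandparents (bottom), over the 11637 probes tested. The vertical lines are the 9 genes, which run from -0.20 to 0.08 for mothers and from -0.17 to 0.13 for grandparents, near the centre of both distributions.

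The second comparison asked whether the temperature of the grandparents was still visible after the mothers had been returned to 20 °C. Again 0 of 9 genes passed (limma; 0.284% of all probes did). In the fit without a replicate block 0 of 9 had an unadjusted limma p under 0.05, against 738 of the 11637 probes. The differences ran from -0.17 for mes-3 to 0.13 for hpl-2. The median of the 9 was 0.02, with 5 above 0 and 4 below, against -0.01 over all probes. All 9 intervals stayed within 1.5-fold, between 1.39-fold lower (mes-3) and 1.33-fold higher (hpl-2) after 25 °C grandparents. With the replicate number as a block only hpl-2 had an unadjusted p under 0.05, with a limma p of 0.0481 (adjusted p = 0.495). In N2 alone 0 of 9 passed, as did 0.112% of all probes, and in HC445 alone 0 of 9, as did 0.0859%.

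lin-35 and lin-9, which had the lowest estimates after 25 °C mothers, were at 0.02 ± 0.14 and 0.06 ± 0.12 (SE) after 25 °C grandparents. With slide as a fixed term the lin-35 value was 0.38, at an unadjusted p of 0.0115 and a limma adjusted p of 0.746. lin-35 averaged 1.35 ± 0.15 after 25 °C grandparents and 1.32 ± 0.14 after 20 °C grandparents (SD, n = 6 each). lin-9 averaged -0.83 ± 0.10 after 25 °C grandparents and -0.90 ± 0.18 after 20 °C grandparents. Positive estimates with one sign on all 3 scan days were seen for dpl-1 (0.11 ± 0.08, SE), lin-54 (0.12 ± 0.10) and hpl-2 (0.13 ± 0.14), and a negative one for mes-2 (-0.06 ± 0.09), none of them past the threshold.

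mes-3 had the most negative estimate of this generation. In N2 its log2 signal was -2.15, -2.40 and -2.61 after 25 °C grandparents, against -2.18, -2.22 and -2.28 after 20 °C grandparents. In HC445 it was -2.21, -2.82 and -2.56 after 25 °C grandparents, against -2.33, -2.33 and -2.39 after 20 °C grandparents. In each strain the replicate 2 and 3 arrays of 25 °C grandparents lay below all 3 arrays of 20 °C grandparents, and the replicate 1 array lay above them. The pooled difference was -0.17 ± 0.15 (SE), and within scan days it was 0.07, -0.33 and -0.25.

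Between 25 °C and 20 °C ancestors within a strain, efl-1 was the single gene for which 2 groups of 3 did not overlap. In HC445 its log2 signal was 0.51, 0.47 and 0.51 after 25 °C grandparents, against 0.64, 0.57 and 0.77 after 20 °C grandparents. In N2 it was 0.90, 0.74 and 0.78 after 25 °C grandparents, against 0.58, 0.58 and 0.89 after 20 °C grandparents. The HC445 arrays of 25 °C grandparents were thus all low, while the N2 arrays of 25 °C grandparents were on the high side and overlapped their controls. Groups of 3 did not overlap for 8.19% of all probes in HC445 and for 7.32% in N2, so 1 of 9 in HC445 and 0 of 9 in N2 are close to the share over all probes. The pooled 6 arrays did not overlap for 0 of 9 genes and 0.515% of probes. The efl-1 difference was -0.16 ± 0.12 in HC445 and 0.12 ± 0.12 in N2 (SE). The term for the strain difference in this effect was -0.28 ± 0.17 (SE), with an unadjusted limma p of 0.114. It passed the threshold for 0 of 9 genes and 0% of all probes.

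The difference between the maternal and the grandparental effect was tested directly. It passed for 0 of 9 genes (lowest limma adjusted p = 0.535, lin-9) and for 5.30% of all probes. The estimates for lin-9 (-0.25 ± 0.18, SE) and lin-35 (-0.23 ± 0.19) were the lowest, and 7 of 9 were below 0. With ancestors at 20 °C throughout, generation 3 differed from generation 2 for 0 of 9 genes and 0% of probes. The estimate furthest from 0 there was that of mes-3, 0.21 ± 0.15 (SE) higher in generation 3, with an unadjusted limma p of 0.168.

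HC445 was set against N2 using the embryos of both generations whose ancestors stayed at 20 °C. Here 0 of 9 genes passed (limma; 0.112% of all probes did), and all 9 intervals lay within 1.27-fold lower and 1.24-fold higher in HC445. The lowest estimate was that of mes-2, with a log2 signal of 1.77 ± 0.16 in HC445 and 1.88 ± 0.11 in N2 (SD, n = 6 each). The difference of -0.11 ± 0.09 (SE) had an unadjusted limma p of 0.252. hpl-2, the highest, differed by 0.02 ± 0.14.

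The one term for which any of these mRNA signals passed the threshold was the replicate number. Each number was scanned on a day of its own, and each day held 1 array of each of the 8 groups, so that the groups are balanced over it. In a fit with groups and replicate number, 6 of 9 genes passed the limma F test for the number, where 45.9% of all probes passed, so the share among the 9 is not far from that of the whole array. The genes were dpl-1, lin-9, lin-54, hpl-2, mes-3 and mes-4. All arrays of a slide were scanned on the same day, and the F test had no term for the slide. Arrays of a slide were correlated (0.51, in a fit without the replicate number), so the p-values of the F test may be too small. The gap in log2 signal between the highest and lowest replicate number was 0.24 at the median of the 9 genes and 0.39 at the median of all probes.

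hpl-2 had the clearest pattern, and its F value ranked 176th of the 11637 probes. Its log2 signal was between 1.96 and 2.27 (median 2.05) on the 8 arrays of replicate 1, between 2.30 and 2.61 (median 2.43) on those of replicate 2 and between 2.36 and 2.64 (median 2.55) on those of replicate 3. All 8 arrays of replicate 1 lay below all 16 others, and replicate 1 was the lowest array in 8 of 8 groups. Replicate 2 was higher by 0.36 and replicate 3 by 0.46 than replicate 1 (limma adjusted p = 6.61e-06 for the F test), a range of 1.37-fold. In the fit without a block this was wider than any temperature estimate among the 9 genes, although it spans 3 numbers and not 2 groups. The shifts of hpl-2 were smaller in other values, at 0.26 and 0.29 with quantile normalization and 0.29 and 0.25 with normexp background correction. hpl-2 also passed with every other normalization and filter tried and without the slide of the 25 °C replicate 3 arrays, at a limma adjusted p of 0.000446 or lower. Without the spike-in noted arrays its shifts were 0.42 and 0.47. None of these fits had a term for the slide.

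The other genes moved less and in both directions. mes-3 was 0.26 lower in replicate 2 and 0.37 lower in replicate 3 than in replicate 1 (limma adjusted p = 0.00845), and lin-9 was 0.19 and 0.31 lower (limma adjusted p = 0.0106). mes-4 was 0.24 higher in replicate 2 and 0.16 higher in replicate 3 (limma adjusted p = 0.0400). dpl-1 was 0.13 higher in replicate 2 and 0.01 lower in replicate 3 (limma adjusted p = 0.0393). With normexp background correction the dpl-1 value in replicate 2 was -0.02, and with quantile normalization its values were 0.04 and -0.12. The p-values of this paragraph are those of the F test over all 3 numbers. lin-54 was 0.16 higher in replicate 2 and 0.25 higher in replicate 3 (limma adjusted p = 0.00495), but it missed the threshold at an adjusted p of 0.407 with quantile normalization and was -0.01 in replicate 2 with normexp. lin-35, efl-1 and mes-2 did not pass in the values used here, while mes-2 passed with quantile normalization (limma adjusted p = 0.0298) and mes-2 and efl-1 passed with normexp (limma adjusted p = 0.0386 and 0.0169). Other calls were also lost in some settings: mes-4 with quantile normalization (adjusted p = 0.0826), the deposited values (0.0811) and normexp (0.337), lin-9 with normexp (0.0822), dpl-1 with normexp (0.169) and with no filter on dim probes (0.0503). Without the spike-in noted arrays, which leaves N2 with 25 °C mothers at 1 array, lin-9, mes-3 and dpl-1 missed the threshold. dpl-1 also missed it without the slide of the 25 °C replicate 3 arrays (limma adjusted p = 0.119). The share of all probes that passed fell too, from 45.9% in the values used here to 35.5% with quantile normalization. It was 35.4% with the deposited values, 34.0% with normexp and 35.2% with no filter on dim probes. Without the slide of the 25 °C replicate 3 arrays it was 32.4%, and it was lower still without the spike-in noted arrays. Whether the replicate numbers also mark separate collections or amplifications is not given in the labels, so scanning and earlier steps cannot be told apart.

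**Figure D4:**
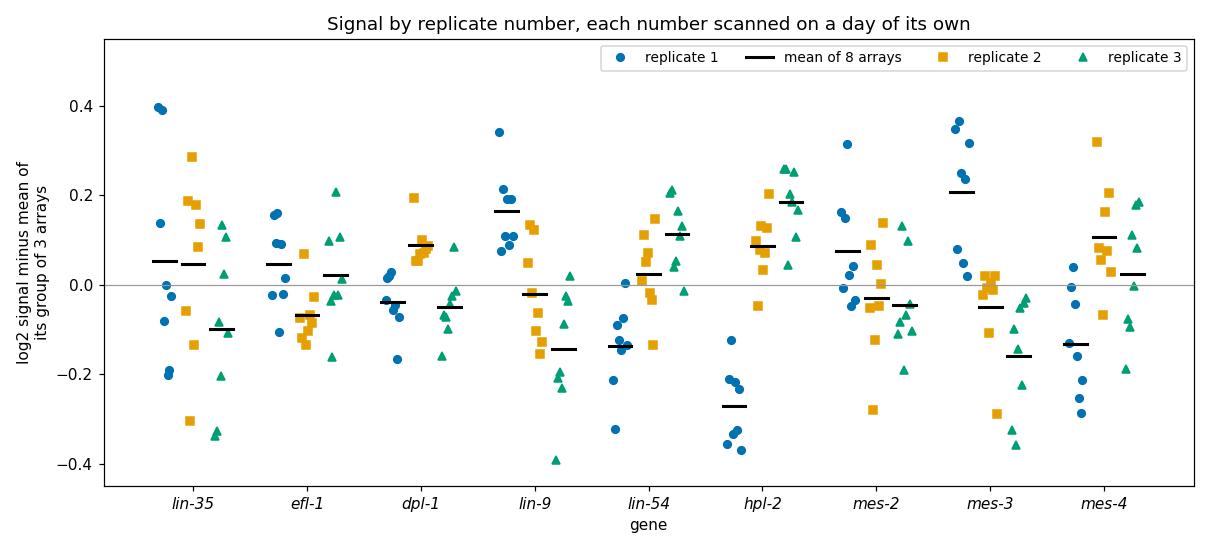
Log2 signal of each gene on each array minus the mean of its group of 3 arrays, by replicate number, with the mean of the 8 arrays of a number as a black bar. hpl-2 was lowest in replicate 1 in all 8 groups, and mes-3 and lin-9 were highest in replicate 1 in 7 and 6 of 8 groups.

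Covariation among the 9 genes over the 24 arrays was examined in 36 pairs. The strongest positive pairs were lin-9 with mes-3 (Pearson r = 0.76, Spearman rho = 0.74) and lin-54 with hpl-2 (r = 0.75, rho = 0.79). For both, r had a permutation p of 1e-05 (two-sided, 100000 resamples, the smallest these can give; adjusted p = 0.00018 over the 36 pairs). The permutation p of rho was 4e-05 for lin-9 with mes-3 and 1e-05 for lin-54 with hpl-2 (adjusted p = 0.00072 and 0.00036). Without the 2 arrays farthest from the median of the first gene, r was 0.73 and 0.77. The permutations exchanged all 24 arrays freely, across groups, replicate numbers and slides. Their p-values therefore do not set a relation between genes apart from a shared shift with the replicate number. The genes lin-9, mes-3, lin-54 and hpl-2 all moved with that number, so the pairs were also read within each number, over 8 arrays. For lin-9 with mes-3, r was 0.85, 0.20 and 0.72 in replicates 1, 2 and 3, while for lin-54 with hpl-2 it was -0.13, 0.70 and 0.56, so that the relation of lin-54 with hpl-2 did not hold in replicate 1. The most negative pair, hpl-2 with mes-3, had r = -0.70 and rho = -0.70 over all arrays (permutation p = 0.00024 and 0.00018; adjusted p = 0.00288 and 0.00216), -0.69 without the 2 farthest arrays, and 0.16, -0.60 and -0.41 within the numbers. The median r of the 36 pairs was 0.13, and 13 pairs were positive within all 3 numbers. Among pairs within the DRM complex, lin-35 with lin-9 had the highest r, 0.59 (rho = 0.43; permutation p = 0.00231 and 0.0368; adjusted p = 0.0166 and 0.166). It was 0.42 without the 2 farthest arrays and 0.45, 0.074 and 0.84 within the numbers. By the same free permutations it was among 7 of the 36 pairs with an adjusted p under 0.05 for r.

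The probe most like a gene was taken as the one with the highest Pearson r of log2 signals over the 24 arrays, among 10659 others with complete values. For hpl-2 this was WBGene00016312 (r = 0.92) and for lin-35 it was WBGene00014220 (r = 0.90), 2 probes to which no name is given here. For the other 7 genes the highest r lay between 0.68 and 0.90. These values describe arrays that share scan days and slides, rest on the same single normalization, and carry no test. By the same measure lin-9 ranked 6 among the probes for mes-3, and mes-3 ranked 16 for lin-9. For the other 7 genes the nearest member ranked between 76 and 783.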

How the data were processed

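The deposited intensities come from Agilent Feature Extraction 9.5.3.1 according to the headers. The authors' processed intensity has background subtracted and trends within the array removed, per the file headers. The deposited flags for spots above background, saturated or non-uniform were used as given. The authors' series table holds log2 values with one distribution on all arrays, a quantile type of normalization from its values. Its method is not stated in what was used here. The array's design header names a genome build other than that of the reference table, so no coordinates are given. The files carry WormBase IDs only, 0 of which are in the reference table. The 9 names come with the definition of the set, and lists of other pathway genes and stage markers, which use names, were not tested. The members and lists were chosen with earlier results of these data known.

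For the tests, each processed signal was divided by the 75th percentile of its array and put on a log2 scale, with outlier spots missing. A probe was tested if well above background on all arrays of at least 1 group (11637 of 15208). Means of 8 groups were fitted with limma 3.58.1 in R 4.3.3 (eBayes with trend), with 11 contrasts tested two-sided and adjusted by Benjamini-Hochberg over all probes at 0.05. The spread was estimated over all groups together. The fit was tested on simulated arrays with independent noise on each array, so correlation within slides was not covered. The replicate F test and the pairwise correlations were added after the data were seen. The files gave 14 slides and 3 scan days. Figures used matplotlib 3.10.9.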

Additional observations from a re-analysis of the deposited data

Results flagged for a closer look

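One result is set apart because every 25 °C array of one strain lay above, and every 25 °C array of the other below, the 20 °C mean of its own strain. For efl-1 after 25 °C grandparents, all 3 HC445 arrays lay below and all 3 N2 arrays lay above the mean of the 20 °C grandparent arrays of their strain. The difference between the strains' effects, HC445 minus N2, was -0.28 ± 0.17 on the log2 scale (SE), and its 95% interval ran from -0.64 to 0.07. The unadjusted p of this term, from the limma model fitted across all probes, was 0.114, and its adjusted p was 1.00. The direct test did not pass. Among 9 genes and 2 generations this was the only case by that criterion. How many of all probes met the criterion was not counted, so the case cannot be called unusual.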

How the results depend on the processing

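The count of genes passing the threshold was 0 of 9 in all 11 comparisons under all 34 alternatives, which gives 374 counts. The alternatives were quantile normalization, normexp background correction (offset 50) with quantile normalization, the deposited series values, no filter on dim probes, a filter that kept the probes detected on every array, a random or fixed term for the slide, the replicate block, omission of the 6 spike-in noted arrays or of the slide that held the 4 replicate 3 arrays of the 25 °C groups, and leaving out each array. The lowest adjusted p among them was 0.109. Of 612 refitted log2 differences for maternal and grandparental temperature, 26 differed in sign from the value given and 0 passed the threshold. Of these 612, 9 had an unadjusted p under 0.05. Maternal estimates ranged from -0.33 to 0.08 for mes-2, from -0.31 to -0.01 for lin-9 and from -0.29 to 0.04 for lin-35, and the grandparental estimate of lin-35 ranged from -0.03 to 0.38.

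With the replicate block 0 of 9 genes passed for either temperature (lowest adjusted p = 0.140 for mothers and 0.495 for grandparents). Of 84 pairs of arrays with the same number, 65 had correlated deviations from their group means with r over 0.1 (median 0.22, lowest -0.23), and all 24 arrays were closest on average to arrays of their own number, a hint from the data and not from the design. The correlation within slides was 0.51. Over all probes, 1626 passed for mothers and 33 for grandparents. These counts became 2666 and 71 with the replicate block, 41 and 1 with slide as a fixed term, 852 and 7 without the spike-in noted arrays. For grandparents the count was also 70 with slide as a random term, 8 without the slide named above, and between 18 and 21 with quantile, normexp or deposited values or the stricter detection filter. The replicate number moved 6 genes, where 45.9% of all probes passed. It moved between 4 and 6 with each array left out, for which the share of all probes is not given here. Without the spike-in noted arrays some of these calls were lost, as given above. In that fit N2 with 25 °C mothers has 1 array, assumed to vary like the other groups, and the replicate numbers are not balanced over the groups.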
